A study of Ciona robusta with 15 samples.

Results

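A set of 253 transcripts of the oral siphon of the solitary sea squirt Ciona robusta stood higher in every library of regrowing siphons than in any library of siphons taken at amputation, and was also higher on average in siphons labelled non-regenerating. The members were chosen by their CPM, which are counts scaled to a common library size by edgeR's trimmed-mean factors (TMM). The lowest of the 9 libraries of days 1, 3 and 8 had to exceed the highest of the 3 day 0 libraries, and the mean of the 9 had to reach 1 CPM. The mean of the 3 non-regenerating libraries had to exceed the highest day 0 library, and the lowest non-regenerating library had to stay under 2 times the highest of the 12 libraries of days 0 to 8. Of 17745 transcripts in the table, 253 met these limits, which is 1.43% of them. The rule used all 15 libraries, so the difference from day 0 describes how the members were chosen, and calls on it are counted only beside those of all transcripts.

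The oral siphon is the muscular tube through which the animal takes in water, and it grows back after amputation. In Ciona the regrowth draws on dividing progenitor cells, some of which move in from the branchial sac, the animal's feeding and breathing basket, and on local cells of the siphon that renew its pigment organs. The siphon carries bands of muscle, nerves, blood cells and an outer tunic, all of which contribute RNA to a sample of the whole tissue. In such a sample, a larger share of the cells of a type and more RNA per cell cannot be told apart.

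Polyadenylated RNA was sequenced in 15 libraries, 3 for each of 5 groups of wild-type siblings about 6 months old: siphons labelled non-regenerating, and those sampled at day 0, 1, 3 or 8 of regrowth, day 0 being the time of amputation itself. Each library held the RNA of 5 pooled siphon samples, so its values carry no spread between animals. The labels give 75 animals selected, but do not say which pools, if any, shared animals or how the non-regenerating siphons were handled. All groups share the genotype, and the animals were anesthetized in MS222 before amputation. A p-value here therefore reflects how pools differ. Library totals ran from 7039611 to 33413013 counts.

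The files give Ensembl transcript identifiers without gene names, and the reference table used (21486 genes) held 0 of the 17745 identifiers, so no name, role, sequence or position is given for a member, and the labelled tissue could not be checked against marker genes. CPM are not corrected for transcript length, so each member is compared with itself across libraries.

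Several libraries stood apart in ways that bear on these members. As the plot of the members by library shows, the median member stood 0.38 above day 0 on the log2 scale in day 3 replicate 3 and 0.48 in day 8 replicate 3, the lowest of the 9. It stood 0.99 and 0.83 above in day 3 replicates 1 and 2. It stood 0.64 and 0.57 above in day 1 replicates 1 and 2, but 0.97 in day 1 replicate 3, next to 0.93 and 1.02 in day 8 replicates 1 and 2. Day 1 replicate 3 was thus close to 2 of the day 8 libraries and to day 3 replicate 1, and day 8 replicate 3 was nearer to day 1 replicates 1 and 2 than to the other day 8 libraries. A mix-up of pools and variation between pools cannot be told apart here. The members took 0.62% to 0.761% of all counts in the day 0 libraries, 0.934% to 2.23% in the regrowth libraries and 1.79% to 3.12% in the non-regenerating ones. All libraries were kept under their labels, and results that rest on replicate 3 of days 1, 3 and 8 are also given without those libraries.

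**Figure D1:**
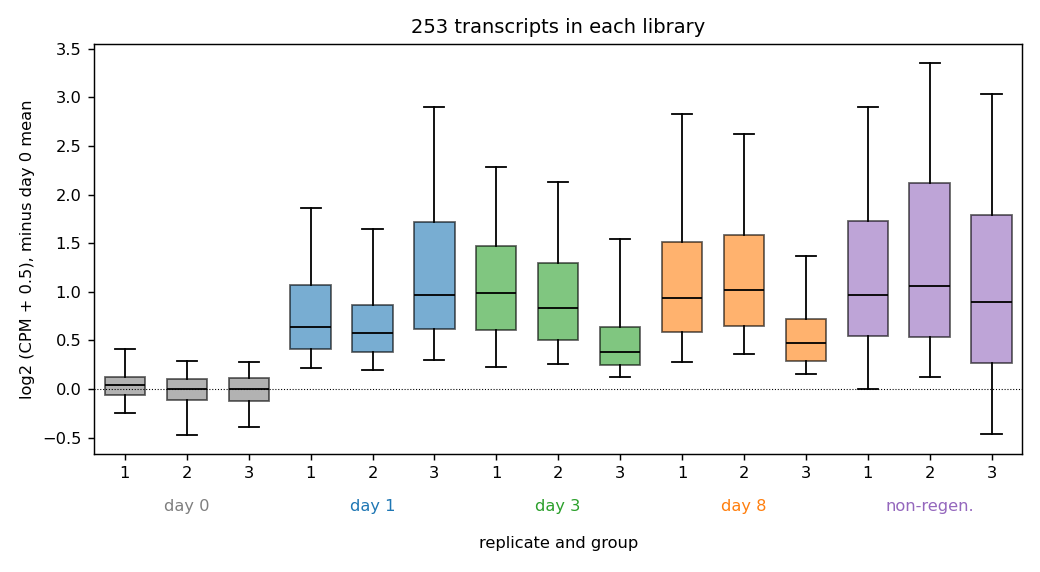
Distribution of the 253 members in each of the 15 libraries, as log2 (CPM + 0.5) minus the member's day 0 mean. Lines are medians, boxes quartiles and whiskers the 5th and 95th percentiles over members. The medians of the 9 regrowth libraries run from 0.38 to 0.99, and those of the 3 non-regenerating libraries from 0.90 to 1.06.

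All 253 members passed the filter on low counts. Their mean over the 9 regrowth libraries had a median of 18.7 CPM, with quartiles of 9.11 and 41.1 CPM, and the median over all 15328 transcripts tested was 12.6 CPM. The regrowth mean was 1.12 to 22.5 times the day 0 mean, with a median of 1.8 times. It was at least 2 times the day 0 mean in 110 members, at least 4 times in 24 and at least 8 times in 7. Most members therefore lay a modest step above day 0. The gap between the groups was narrow: the lowest regrowth library exceeded the highest day 0 library by a median ratio of 1.09, and the largest such ratio was 2.35.

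Full separation of the 9 regrowth libraries above day 0 was met by 334 of the 14085 transcripts with a regrowth mean of at least 1 CPM, or 2.37%. Of these 334, the 253 also had a raised non-regenerating mean, 72 had a non-regenerating mean that did not exceed the highest day 0 library, and 9 had a non-regenerating level beyond the upper limit. The other 81 had a median ratio of regrowth to day 0 of 1.55 and a median regrowth mean of 16.7 CPM, and the difference from the 253 was not tested. All 3 non-regenerating libraries lay above all 3 day 0 libraries in 176 members, or 69.6%, compared with 19.1% of the 14085 transcripts; the rule used this contrast, and nothing is read from the count. The remaining members had 2 (66 members) or 1 (11 members) non-regenerating libraries above the highest day 0 library.

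ENSCINT00000013539 had the highest regrowth mean CPM of the 253. Its day 0 libraries stood at 1020.0, 548 and 639 CPM, those of day 1 at 1209, 1641 and 1594, those of day 3 at 2656, 3109.8 and 1171 and those of day 8 at 2123, 3417 and 1434 CPM. The non-regenerating libraries stood at 5281, 7281 and 3431 CPM, each above every other library with TMM scaling. Replicate 3 exceeded day 8 replicate 2 only narrowly. With library totals alone it lay below that library, with 24134 of 10573547 counts against 57820 of 15170419. The regrowth mean was 2.77 times and the non-regenerating mean 7.25 times that of day 0. ENSCINT00000015984, the next in regrowth mean CPM, stood at 699.6, 516 and 593 CPM at day 0, 1089, 797 and 1278 at day 1, 1185, 1038 and 729 at day 3, 1365, 1489 and 719 at day 8 and 2339.5, 3098 and 3410.3 in non-regenerating siphons. Here too the 3 non-regenerating libraries were the highest of the 15 with TMM scaling, while the 3 days of regrowth overlapped.

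The largest ratios of regrowth to day 0 among members of at least 5 CPM came from transcripts that varied widely between pools of the same day. ENSCINT00000019098 stood at 16.4, 7.29 and 8.39 CPM at day 0 and 46.7, 16.4 and 316 CPM at day 1. Its levels were 239, 155 and 44.6 CPM at day 3, 936, 358 and 50.2 CPM at day 8 and 38.9, 119.8 and 46.8 CPM in non-regenerating siphons. Its regrowth mean was 22.5 times that of day 0, yet day 1 replicate 2 cleared the highest day 0 library by a ratio of only 1.001, and day 8 replicate 1 alone held the highest value by a wide margin. It met the rule with TMM scaling and with library totals alone, but not with DESeq2 size factors. ENSCINT00000013341 stood at 0.9, 0.437 and 0.631 CPM at day 0 and 2.08, 4.51 and 20.2 CPM at day 1. It then stood at 12.1, 4.56 and 6.75 CPM at day 3, 6.8, 9.34 and 1.81 CPM at day 8 and 32.3, 11.7 and 9.95 CPM in non-regenerating siphons, a regrowth mean 11.5 times that of day 0. In both transcripts day 1 replicate 3 was far above the other day 1 libraries.

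The widest gaps, with the lowest regrowth library at least 2 times the highest day 0 library, were those of ENSCINT00000006259 and ENSCINT00000025592 among members of at least 5 CPM, apart from ENSCINT00000013341 above. ENSCINT00000006259 stood at 2.7, 1.7 and 0.243 CPM at day 0 and 21.6, 19.1 and 6.34 at day 1. It stood at 7.88, 11.4 and 7.94 CPM at day 3, 11.8, 8.8 and 25.1 at day 8 and 10.7, 2.36 and 1.42 in non-regenerating siphons, where replicates 2 and 3 lay within the range of day 0 and replicate 1 lay above it. ENSCINT00000025592 stood at 10.3, 5.83 and 20.3 CPM at day 0 and 44.5, 50.3 and 202 at day 1. It stood at 149, 86.0 and 91.4 CPM at day 3, 115, 175 and 55.6 at day 8 and 123, 208 and 121 in non-regenerating siphons, all above day 0. These transcripts went opposite ways among the day 1 libraries: replicate 3 was the lowest of day 1 for ENSCINT00000006259 and the highest for ENSCINT00000025592.

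**Figure D2:**
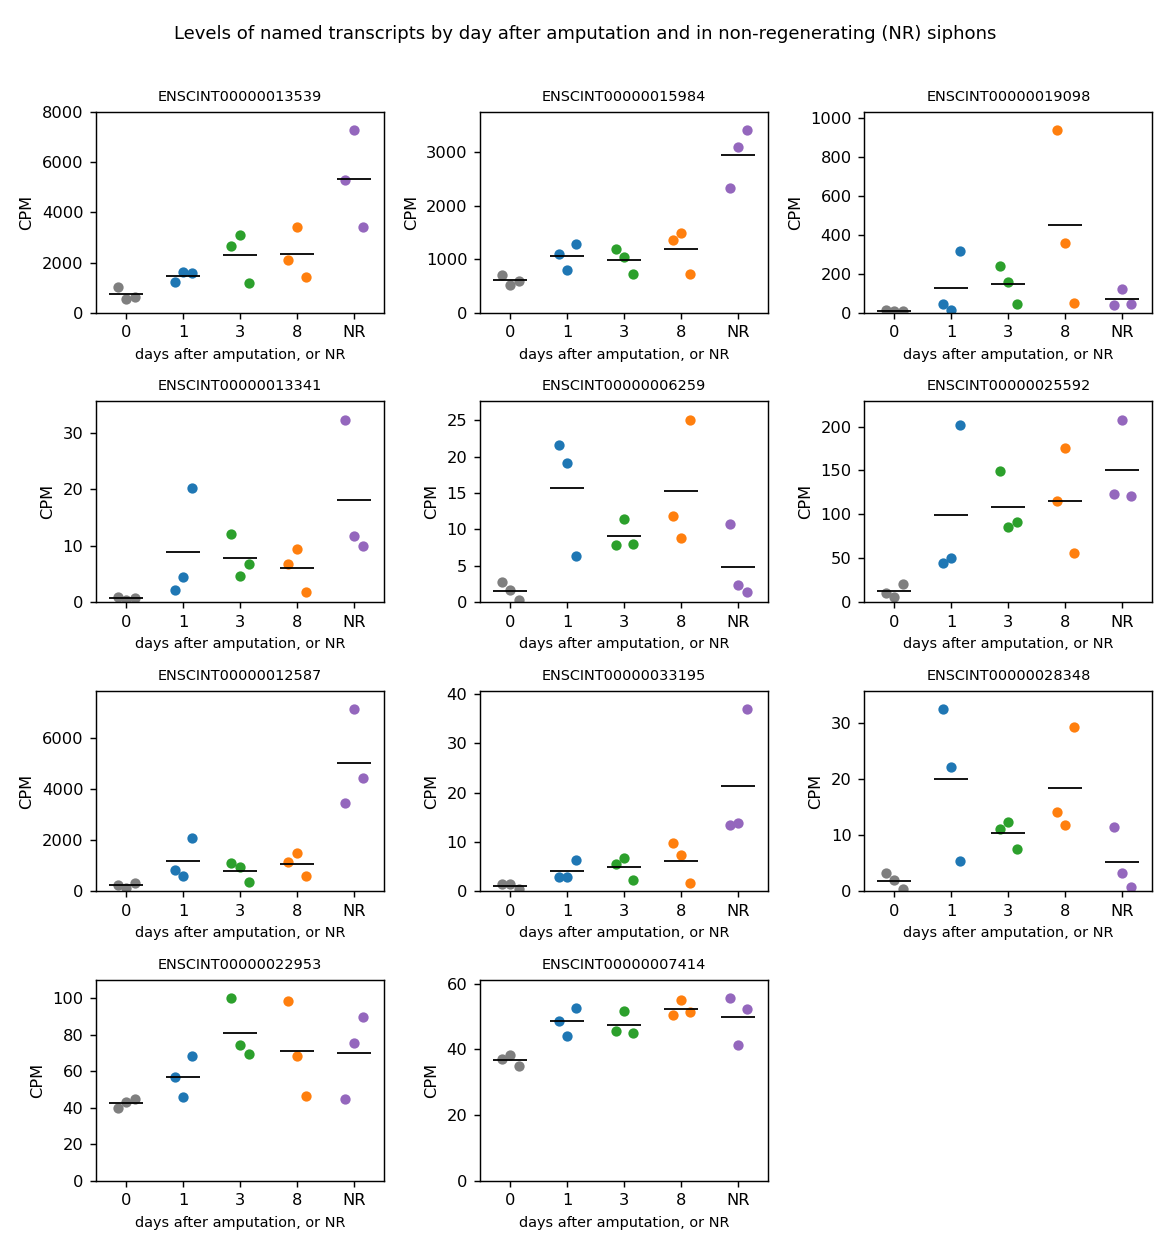
TMM-scaled CPM of 11 named members in every library. Points are libraries in the order of replicates 1 to 3, black lines are group means of 3 libraries, and each vertical axis starts at 0. Day 0 has the lowest group mean in each panel, while the non-regenerating (NR) level ranges from near day 0 to the highest of all groups.

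The level of the members in non-regenerating siphons was set beside that of regrowth as a description, since the rule bounded it on both sides. The non-regenerating mean lay within the range of the 9 regrowth libraries in 145 members (57.3%), above the highest of them in 89 (35.2%) and below the lowest in 19 (7.51%). Over all 15328 transcripts tested these shares were 54.8%, 22.1% and 23.1%. The non-regenerating mean was above the mean of the 9 in 164 members and below it in 89 with TMM, an order that turned around with library totals, and it was within 1.5 times of it, in either direction, in 159. The median ratio was 1.17, with quartiles of 0.882 and 1.6. By day, the non-regenerating mean exceeded that of day 1 in 164 members (64.8%, against 45.5% of all transcripts tested), that of day 3 in 171 (67.6%, against 46.3%) and that of day 8 in 153 (60.5%, against 47.3%), with TMM scaling.

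**Figure D3:**
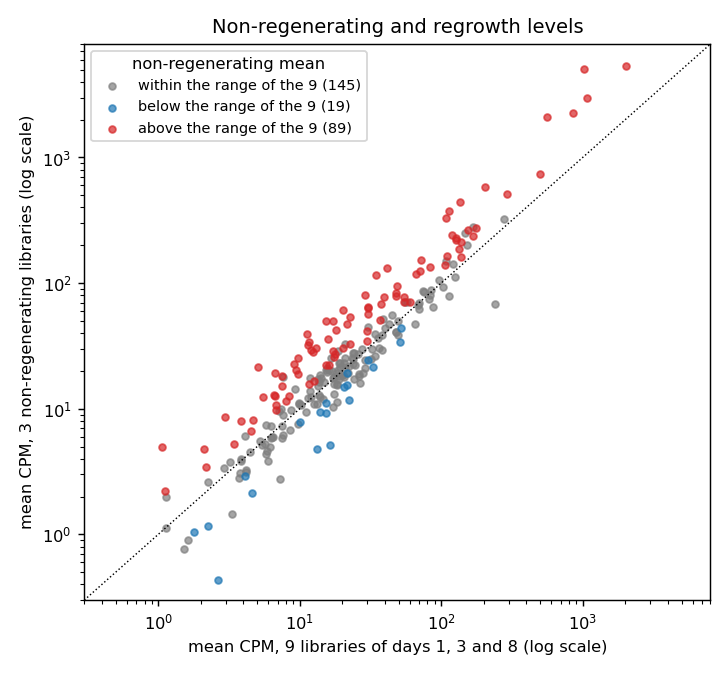
Mean CPM of the 253 members in the 3 non-regenerating libraries (vertical, log scale) against the mean of the 9 libraries of days 1, 3 and 8 (horizontal, log scale). Each point is a transcript, the dotted line marks equal means, and colour shows whether the non-regenerating mean lies within (145), above (89) or below (19) the range of the 9 libraries with TMM scaling; with library totals the non-regenerating mean is above the regrowth mean in 77 of the 253.

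This order depended on scaling. With library totals in place of TMM, the non-regenerating mean exceeded the regrowth mean in 77 of the 253, where it did so in 164 with TMM. The median log2 ratio of the means moved from 0.22 to -0.36, and that of all transcripts tested, with 0.5 CPM added to each mean, moved from -0.07 to -0.59. The non-regenerating mean exceeded the day 0 mean in 253 members with TMM and with DESeq2 size factors, and in 205 with library totals. The regrowth mean exceeded the day 0 mean in all 253 under each of the 3 scalings, and all 9 regrowth libraries lay above day 0 in 253, 229 and 176 of them with TMM, DESeq2 size factors and library totals. The rule fixed the direction of regrowth over day 0, and library totals moved all transcripts as well as the members.

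In edgeR's quasi-likelihood test across all transcripts, 147 of the 253 were called higher in non-regenerating siphons than at day 0, where 13.6% of all transcripts were. Against day 0, 2 members were called higher at day 1, where 0.0196% of all transcripts were. They were ENSCINT00000026108, described below, and ENSCINT00000032868, at 1.8, 1.75 and 1.65 CPM at day 0 and 9.61, 5.92 and 9.49 CPM at day 1, both named after their values were seen. With the replicate number as a block over all groups, neither was called, where 0% of all transcripts were. In the edgeR fit without the block 0 members were called higher at day 3 and 0 at day 8, where 0% of all transcripts were. At an unadjusted p under 0.05 in edgeR, 184 members were higher at day 3, where 4.77% of all transcripts were, and 203 at day 8, where 7.9% were. The rule chose the members on these contrasts, so nothing is read from the counts. Non-regenerating siphons were called higher than the mean of days 1, 3 and 8 in 68 members (26.9%), where 13.8% of all transcripts were, and lower in 3 (1.19%), where 14% were. The 3 lower ones, named after their values were seen, were ENSCINT00000003691, ENSCINT00000028768 and ENSCINT00000033881, with non-regenerating means of 11.1 ± 1.69, 0.43 ± 0.442 and 2.12 ± 0.872 CPM (SD, n = 3) and regrowth means of 15.4, 2.66 and 4.6 CPM. The rule also bounded this contrast. With library totals, 17 of the 253 were called higher, where 5.09% of all transcripts were, and 69 lower, where 41.7% were. With TMM, these 71 calls among the 253 became 43 without non-regenerating replicate 2, where 18.4% of all transcripts were called in either direction, compared with 27.8% with all libraries.

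Among members of at least 5 CPM, ENSCINT00000012587 and ENSCINT00000033195 stood highest in non-regenerating siphons relative to regrowth. ENSCINT00000012587 was at 238, 149.8 and 343 CPM at day 0 and 820.4, 603 and 2110.3 at day 1. It was at 1111, 940.4 and 349 CPM at day 3, 1169, 1508 and 596 at day 8 and 3468, 7163 and 4460.2 in non-regenerating siphons, a mean 4.92 times that of regrowth. No regrowth library reached a non-regenerating one, and day 3 replicate 3 barely cleared day 0. ENSCINT00000033195 was at 1.41, 1.46 and 0.388 CPM at day 0, 2.91, 2.96 and 6.34 at day 1, 5.5, 6.74 and 2.37 at day 3, 9.75, 7.39 and 1.61 at day 8 and 13.5, 13.8 and 37.0 in non-regenerating siphons. Its non-regenerating mean was 4.23 times that of regrowth, and replicate 3 was well above the other 2. With library totals the ratio was 2.67 for this transcript and 3.26 for ENSCINT00000012587, which then no longer met the rule.

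At the other end were ENSCINT00000019098, described above, at 0.285 times the regrowth mean, and ENSCINT00000028348. ENSCINT00000028348 was at 3.21, 1.99 and 0.34 CPM at day 0 and 32.4, 22.1 and 5.43 at day 1. It was at 11.1, 12.4 and 7.57 CPM at day 3, 14.1, 11.9 and 29.2 at day 8 and 11.4, 3.19 and 0.853 in non-regenerating siphons. Non-regenerating replicate 1 alone lay above all of day 0, so that library decided its place among the members. Its log2 levels followed those of ENSCINT00000006259 over the 15 libraries (r = 0.987), with 2726 and 2274 counts in all. Whether they share reads was not tested.

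Where the non-regenerating and regrowth means were most nearly equal, ENSCINT00000022953 was at 39.9, 42.8 and 44.5 CPM at day 0 and 56.6, 45.6 and 68.2 at day 1. It was at 99.9, 74.1 and 69.2 CPM at day 3, 98.5, 68.1 and 46.3 at day 8 and 44.5, 75.2 and 89.6 in non-regenerating siphons, where replicate 1 stood near day 0. ENSCINT00000007414 was at 36.9, 38.4 and 34.9 CPM at day 0 and 48.7, 44.0 and 52.7 at day 1. It was at 45.5, 51.7 and 44.8 CPM at day 3, 50.5, 55.1 and 51.2 at day 8 and 55.6, 41.3 and 52.3 in non-regenerating siphons, a small and even step above day 0 of 1.34 times for the regrowth mean. With library totals neither met the rule, ENSCINT00000022953 also failed it with DESeq2 size factors, and the non-regenerating mean of ENSCINT00000007414 was 1.002 times that of day 0.

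The days of regrowth were then compared with each other, to ask whether the members differed between the days. The rule did not compare these days, but it kept only transcripts with every library of each day above day 0. Transcripts that fell back to day 0 on any of these days were thus left out. How far this thins the differences between days was not tested. No member passed the edgeR test between days 1 and 3, days 3 and 8, or days 1 and 8, or in the test for any difference among the 3 days, and 0% of all transcripts did in each. The lowest adjusted p among the members in edgeR was 0.999 between days 1 and 3. DESeq2 and limma voom also called 0 members, where DESeq2 called 0.0718%, 0.0848%, 0.00652% and 0.0848% of all transcripts in the 4 tests in that order and limma voom 0%. At an unadjusted p under 0.05 in edgeR there were 6 members between days 1 and 3, where 2.99% of all transcripts were, 1 between days 3 and 8, where 2.96% were, 2 between days 1 and 8, where 1.46% were, and 2 for any difference, where 2.27% were. These members were 2.37%, 0.395%, 0.791% and 0.791% of the 253. Named after their values were seen, the member behind the count of 1 was ENSCINT00000014713, those between days 1 and 8 were ENSCINT00000026108 and ENSCINT00000026146, and those for any difference were ENSCINT00000026108 and ENSCINT00000030338. The highest and lowest of the 3 day means were within 1.5 times of each other in 215 members and over 2 times apart in 6. The same was not counted over all transcripts.

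The members' fold changes between days were set beside those of all transcripts. The median log2 fold change was -0.073 from day 1 to day 3, where that of all transcripts tested was 0.019. It was 0.089 from day 3 to day 8, where that of all was -0.012, and 0.041 from day 1 to day 8, where that of all was -0.00065. The day with the highest mean was day 8 in 107 members (42.3%), day 1 in 87 (34.4%) and day 3 in 59 (23.3%), and over all transcripts tested it was 31.5%, 32% and 36.5%. Leaving out a single library changed the sign of the median in each of these comparisons, as set out with the other alternatives below.

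**Figure D4:**
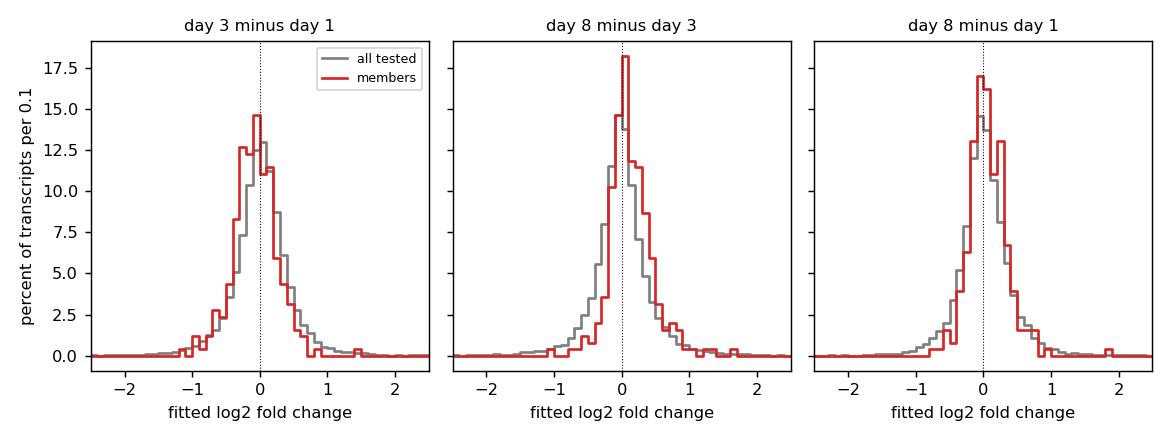
Fitted log2 fold changes between days of regrowth, as the percent of transcripts in each interval of 0.1, for the 253 members (red) and all 15328 transcripts tested (grey). The members' medians are -0.073, 0.089 and 0.041 from left to right.

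The members with the lowest p in each direction did not pass the test. ENSCINT00000026108 had the lowest p downward from day 1 to day 3 and from day 1 to day 8. Its libraries stood at 3.37, 4.91 and 3.06 CPM at day 0, 13.2, 13.2 and 11.9 at day 1, 10.4, 6.46 and 7.42 at day 3, 8.37, 8.04 and 9.03 at day 8 and 26.8, 23.6 and 25.4 in non-regenerating siphons. Day 1 was above days 3 and 8 in every library and non-regenerating siphons above all of them, with a log2 fold change of -0.67 ± 0.23 (SE) to day 3 and of -0.59 ± 0.23 (SE) to day 8. The adjusted p of edgeR's quasi-likelihood test were 0.999 and 0.9998, with unadjusted values of 0.0116 and 0.0213. ENSCINT00000030338, a transcript of few reads, stood at 0.506, 0.631 and 0.34 CPM at day 0, 0.652, 1.46 and 0.787 at day 1, 2.38, 2.39 and 3.26 at day 3, 0.961, 1.48 and 1.35 at day 8 and 0.489, 0.375 and 1.85 in non-regenerating siphons. All 3 day 3 libraries were above every other library, with a log2 fold change of 1.46 ± 0.56 (SE) from day 1 to day 3. The adjusted p of edgeR's quasi-likelihood test was 0.999, with an unadjusted value of 0.0194. This transcript also had the lowest p downward from day 3 to day 8.

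ENSCINT00000014713 had the lowest p upward from day 3 to day 8, at 11.5, 13.8 and 13.1 CPM at day 3 and 25.8, 27.1 and 12.1 CPM at day 8. Day 8 replicate 3 lay among the day 3 libraries, and the log2 fold change was 0.76 ± 0.32 (SE) with an unadjusted p of 0.0321 and an adjusted p of 0.99999 in edgeR. ENSCINT00000007510 had the lowest p upward from day 1 to day 8, at 13.2, 10.9 and 14.2 CPM at day 1 and 19.0, 26.8 and 14.4 CPM at day 8, every day 8 library being above every day 1 library. Its log2 fold change was 0.65 ± 0.31 (SE) with an unadjusted p of 0.0522 and an adjusted p of 0.9998 in edgeR. The other member below 0.05 between days 1 and 8 before adjustment was ENSCINT00000026146, at 24.5 ± 6.07 CPM at day 1 and 14.4 ± 1.55 CPM at day 8 (SD, n = 3), named after its values were seen.

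Replicate 3 of days 1, 3 and 8 was also left out, a choice made after the data were seen, so calls without these libraries are a description. Without them the comparison of day 8 with day 1 looked different. Of the same 253 members, 211 had a positive and 42 a negative log2 fold change, with a median of 0.35 where that of all transcripts was -0.0068, and 5 passed the test in edgeR, all higher at day 8, where 0.354% of the 15546 transcripts tested in that fit did. With all libraries, 143 were positive and 110 negative. Between days 3 and 1 the median was 0.23, where it had been -0.073, and 0 members passed, and between days 8 and 3 the median was 0.086 and 0 passed. Replicate 3 held the highest day 1 value of 174 members, the lowest day 3 value of 195 and the lowest day 8 value of 207. These counts were not taken over all transcripts, so they are not read as a trait of the members. The other transcripts also varied between these libraries, as given with the first principal component below. Without these libraries the median changed sign between days 1 and 3, grew between days 1 and 8 and stayed near its value between days 3 and 8.

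The 5 members called without those libraries are named because of that count, after their values were seen. ENSCINT00000033041 had the largest difference, at 18.5, 16.0 and 282 CPM at day 1 and 150.1, 207 and 19.2 CPM at day 8, with 12.5, 6.7 and 11.6 CPM at day 0, 104, 62.6 and 112 at day 3 and 496, 277 and 219 in non-regenerating siphons. Day 1 replicate 3 lay above the day 8 libraries and day 8 replicate 3 with day 1 replicates 1 and 2. Its log2 fold change was 3.37 ± 0.45 (SE) without replicates 3 (adjusted p = 0.014 in edgeR), and 0.25 ± 0.95 (SE) with all libraries. ENSCINT00000006284 showed the same arrangement, at 6.58, 6.06 and 51.7 CPM at day 1 and 39.5, 41.2 and 4.65 CPM at day 8. ENSCINT00000018141 stood at 13.6, 8.54 and 41.4 CPM at day 1 and 54.7, 42.7 and 10.8 CPM at day 8, with day 1 replicate 3 just under the upper day 8 libraries. ENSCINT00000036961 stood at 4.68, 6.99 and 23.5 CPM at day 1 and 17.4, 17.0 and 5.23 CPM at day 8, and ENSCINT00000016869 at 12.8, 12.0 and 27.9 CPM at day 1 and 34.4, 29.5 and 14.6 CPM at day 8. In all 5, the third library of each of these days lay on the side of the other day. In this order, the log2 fold changes of these last 4 without replicates 3 were 2.67, 2.14, 1.55 and 1.36, with adjusted p of 0.014, 0.0208, 0.0486 and 0.0452 in edgeR, in fits that leave 2 libraries to each day. With all libraries the adjusted p in edgeR was 0.9998 for each of the 5. The libraries were left out after their place among the members was seen, so nothing is read from the smaller values.

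Most members varied in the same direction from library to library, across the days. Over the 9 regrowth libraries the first principal component of their log2 levels held 62.6% of the variance, and that of the 15075 other transcripts tested held 40.9%. Levels were centred but not scaled, so the most variable transcripts, such as ENSCINT00000019098, weigh most in these shares. Of the 253, 234 lay on this component in one direction and 19 in the other, a split that was not counted for the other transcripts. Its scores were -3.88, -5.64 and 7.5 for day 1, 3.17, 0.384 and -6.27 for day 3 and 6.05, 6.05 and -7.36 for day 8. Each day held libraries of high and of low score. The scores of the other transcripts were -18.7, -25.2 and 44.8 for day 1, 21.4, 3.32 and -51.5 for day 3 and 33.0, 35.1 and -42.2 for day 8, with the same sign as those of the members in all 9 libraries. The part of this variation in the members' height over day 0 was not tested.

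The same pattern showed in single libraries. Day 3 replicate 3 held the lowest of the 9 regrowth values for 103 members (40.7%), where it did so for 17.7% of all transcripts tested, and day 8 replicate 3 for 59 (23.3%, against 12% of all). Day 1 replicate 3 held the highest value for 81 members (32%, against 14.9%) and day 8 replicate 2 for 58 (22.9%, against 10%). The limit on the lowest regrowth library therefore rested on day 3 replicate 3 more often than on any other library, and 603 transcripts met the rule without that library, the 253 among them. Day 1 replicate 1 held the highest value for 15 members (5.93%, against 9.87% of all) and replicate 2 for 6 (2.37%, against 6%). Day 3 replicate 2 held it for 12 (4.74%, against 7.39%). Replicate 3 of day 3 and of day 8 held it for 3 each (1.19%, against 16.4% and 12.6%). ENSCINT00000006259 and ENSCINT00000028348 were among the 19 of the opposite direction.

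**Figure D5:**
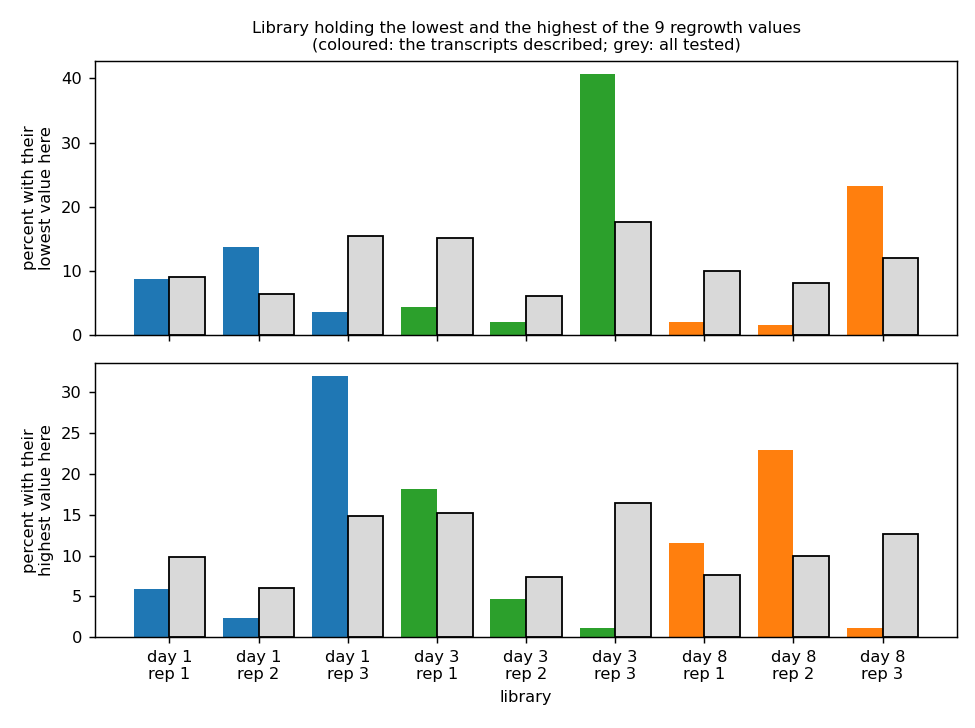
Percent of the 253 members (coloured bars) and of all 15328 transcripts tested (grey bars) whose lowest (upper panel) or highest (lower panel) of the 9 regrowth values lies in each library. Day 3 replicate 3 holds the lowest value of 40.7% of the members and day 1 replicate 3 the highest of 32%.

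Among the non-regenerating libraries, replicate 2 held the highest value for 106 members (41.9%, against 29.9% of all transcripts tested), replicate 1 for 84 (33.2%, against 36.3%) and replicate 3 for 63 (24.9%, against 33.8%). Replicate 3 did not exceed the highest day 0 library in 51 members, replicate 1 in 20 and replicate 2 in 17. Replicate 3 thus most often brought a member's non-regenerating level down to that of day 0.

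A few members may be counted more than once. ENSCINT00000014292 and ENSCINT00000014295 held 8682 and 8671 counts that agreed within 1% of their totals, and counting such copies once leaves 252 members. The pair of ENSCINT00000036032 and ENSCINT00000005930, with 3854 and 3838 counts, correlated at r = 0.9988 over the 15 libraries without meeting that limit. ENSCINT00000013539 followed ENSCINT00000037089 at r = 0.984, at 623356 and 271787 counts. Whether any of these pairs share reads was not tested, so their separate values are uncertain. Reads of a transcript and of one that overlaps it, also on the opposite strand, may have been counted together.

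Just inside the limit between regrowth and day 0 were ENSCINT00000036810, with a lowest regrowth library of 11.9 CPM and a highest day 0 library of the same value to 3 digits, and ENSCINT00000003290, with 82.8 and 82.7 CPM. Just outside were ENSCINT00000024352, with 14.6 CPM on both sides, and ENSCINT00000006226, with 19.1 CPM on both. The regrowth means nearest the limit of 1 CPM were 1.06 CPM inside and 0.872 CPM outside, and the non-regenerating means nearest the highest day 0 library were 1.0025 times it inside and 0.997 times it outside. The lowest non-regenerating libraries nearest the upper limit were 0.978 times the limit inside and 1.099 times it outside.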

How the data were processed

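Messenger RNA of 15 pooled oral siphon samples was measured as read counts per transcript. The deposited counts are whole numbers that the authors obtained with TopHat, Bowtie and HTSeq, per the submitters' processing notes. Not given in the sources used here were tool versions, genome build, annotation, strand setting and the handling of reads that match several transcripts, which can split or repeat counts of close copies. Groups came from the labels, with 3 libraries in each of 5 groups, and no column was left unmapped.

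Counts were scaled in R 4.3.3 with edgeR 4.0.16 by the trimmed mean of M-values over all rows, and the limits given at the opening were applied to the scaled CPM. Transcripts passing edgeR's expression filter with a minimum count of 10 (15328 of 17745, which held 99.9% or more of every library's counts) entered one robust quasi-likelihood fit over all 15 libraries, with Benjamini-Hochberg adjustment over all of them and a threshold of 0.05. Days 1, 3 and 8 were tested against each other, and other contrasts are descriptions, since the rule used them. The procedure was tested on simulated data. The simulation planted large changes in well-counted transcripts and gave libraries no shared variation, so it does not show how small differences between days fare. Same-numbered libraries deviated together (every r over 0.1) between days 3 and 8, with r from 0.193 to 0.441, and between days 0 and 1, with r from 0.129 to 0.169. Between days 1 and 8 they deviated in opposite ways, with r from -0.689 to -0.253. The labels do not state a pairing, so whether the numbers pair the samples is not known. The main fit used no block, and a replicate block was an alternative. Log2 levels for plots and components had 0.5 CPM added.

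Named transcripts are the 2 members with the highest regrowth mean and, among members of at least 5 CPM, the 2 with the largest ratio to day 0, the 2 with the widest gap, the 2 highest, 2 lowest and 2 nearest 1 in the ratio of non-regenerating to regrowth mean. They further include the member with the lowest p in each direction between days, and the 2 transcripts on each side of the gap limit. Others are said to be named after their values were seen. The members, lists and limits were chosen with earlier results of these data known. Alternatives were DESeq2 1.42.0 and limma 3.58.1 (voom), other scalings and filters, a replicate block, fits of the compared groups alone, copies counted once, and each library left out in turn. Library totals ran from 7039611 to 33413013 counts, and transcripts of few counts carry more counting error.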

Additional observations from a re-analysis of the deposited data

How the results depend on the processing

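Of 473 values compared under the alternatives, 426 kept their side of the threshold or moved by less than the limits used (1.5 times for counts, 0.259 on the log2 scale for medians between days). Each median between days changed sign in some fits without a library, by less than this limit, which exceeds the medians themselves. The 473 include fold changes of named transcripts, which had only to keep their sign without passing, and ratios to day 0 held to their own spread. The total is thus not read as stability. Members called higher than day 0 at day 1 stayed within the limit in 2 of 18 alternatives. Those called between non-regenerating siphons and regrowth did so in 10 of 18. With the rule applied anew, the number of members was 239 with DESeq2 size factors, 191 with library totals, and 207 (without non-regenerating replicate 1) to 657 (without day 0 replicate 3) when a library was left out, with 603 without day 3 replicate 3. Between days, 0 members passed in edgeR under each of the 15 fits without a library. The median log2 fold change then ran from -0.18 to 0.10 for day 3 against day 1, from -0.0024 to 0.23 for day 8 against day 3 and from -0.05 to 0.21 for day 8 against day 1. The sets counted next were chosen anew in each of these fits, on contrasts that the rule used, so nothing is read from the ranges. Members called higher than day 0 ran from 0 to 5 at day 1, 0 to 0 at day 3 and 0 to 31 at day 8. The 5 were among 603 transcripts meeting the rule without day 3 replicate 3, and the 31 among 338 without day 8 replicate 3. The shares of all transcripts called higher at these days were not counted in those fits. In non-regenerating siphons, members called higher than day 0 ran from 111 (without non-regenerating replicate 2) to 363 (without day 3 replicate 3). There 19.5% and 28.6% of all transcripts were called in either direction. Those called between non-regenerating siphons and regrowth ran from 32 to 148 in the same fits, where 18.4% and 27.1% of all transcripts were. Members with a non-regenerating mean within the regrowth range ran from 115 to 410.

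Without replicate 3 of days 1, 3 and 8, an alternative chosen after seeing the data, 858 transcripts met the rule, 251 of the 253 among them. Of the 858, 7 passed between days 8 and 1 and 5 in the test of any difference among days, where 0.354% and 0.174% of all transcripts did, and the median of day 3 against day 1 was 0.20. On the contrasts the rule used, 0, 110, 270 and 508 were called higher than day 0 at days 1, 3 and 8 and in non-regenerating siphons, where 0%, 0.939%, 3.27% and 14.8% of all transcripts were. In that set 205 were called between non-regenerating siphons and regrowth, where 26.7% of all were, and 419 had a non-regenerating mean within the regrowth range. With library totals the calls were 1 at day 1, 92 in non-regenerating siphons and 34 between non-regenerating siphons and regrowth, where 0.00652%, 6.43% and 46.8% of all were. With fewer regrowth or day 0 libraries, full separation of regrowth above day 0 is easier to meet, while the other limits are not all eased. Beyond this construction the cause was not tested. A fit with the replicate number as a block called 0 members between days, where 0% of all transcripts were, with medians of -0.096, 0.096 and 0.030. In that fit 141 of the 253 were called higher in non-regenerating siphons than at day 0, where 12.2% of all transcripts were. Between non-regenerating siphons and regrowth 60 were called, where 24.8% of all transcripts were. The rule used both of these contrasts, so nothing is read from the counts. The block changed no call between days. In other pairs of groups than days 3 and 8 and days 0 and 1, the same-numbered libraries did not all deviate together (r from -0.689 over all 30 pairs of libraries).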
